A study of Homo sapiens with 4 samples.

Results

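GATA3 binding was examined at the 8 human SMAD genes, SMAD1, SMAD2, SMAD3, SMAD4, SMAD5, SMAD6, SMAD7 and SMAD9, which were taken from the 20033 protein-coding genes on chromosomes 1 to 22, X and Y. They are the whole SMAD family, taken by name with earlier results of these data known. H1 cells, an established line of human embryonic stem cells (hESCs), were kept in mTeSR1 medium and received BMP4 at 50 ng/ml for 6 h. Binding of GATA3, a zinc finger transcription factor, was mapped by chromatin immunoprecipitation and sequencing (ChIP-seq) in 2 biological replicates, each with its own input chromatin, which makes 4 samples. All samples came from this 1 line and all carried BMP4. GATA3 ChIP from cells without BMP4 was not analysed here, so the positions below show where GATA3 was found at 6 h and hold no change upon BMP4.

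SMAD proteins carry signals of the TGF-β superfamily from receptors at the membrane to the nucleus. SMAD1, SMAD5 and SMAD9 are the receptor-activated SMADs of the BMP branch, and SMAD2 and SMAD3 those of the TGF-β, activin and nodal branch. Once phosphorylated they join SMAD4, the common partner, and bind DNA with it. SMAD6 and SMAD7 are inhibitory SMADs, which block receptors or compete for partners and are classical feedback targets of the pathway. GATA3 is an early BMP4 response gene in hESCs, and the study asked how feedback keeps BMP and SMAD signals on, which is the question that binding at the SMAD genes themselves bears on.

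Each peak was given as 1 base position. For each gene, positions were counted within 100 kb of its 5′ end or anywhere in its gene body. A position of replicate 1 and a position of replicate 2 within 100 bp of each other were called a shared region, centred between them. Distances are signed, so that negative values lie upstream of the 5′ end. The SMAD windows held 18 positions in replicate 1 and 11 in replicate 2, which formed 11 shared regions. Over the whole genome there were 18456 positions in replicate 1, 12782 in replicate 2 and 9145 shared regions.

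The sequences of 6 shared regions within 50 kb of a SMAD 5′ end are given first, because they show GATA sites on which the later counts rest. They are hg38, plus strand, and run 10 bases beyond the outermost replicate position or site. Capitals mark WGATAR, the sequence that GATA factors recognise, which is GATA with A or T before it and A or G after it, on either strand. Where the stretch touched an untranslated region of any annotated transcript, only 30 bases around the site are shown. The order is SMAD1 in intron 2 (chr4:145525631-145525731), SMAD5 at 1.21 kb (chr5:136133983-136134144), SMAD2 in intron 1 (chr18:47901750-47901840), SMAD6 upstream (chr15:66679840-66679961), SMAD7 in intron 1 (chr18:48948481-48948510) and SMAD7 upstream (chr18:48959991-48960083).
SMAD1 intron 2: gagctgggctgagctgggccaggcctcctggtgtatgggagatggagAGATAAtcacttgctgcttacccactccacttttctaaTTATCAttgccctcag
SMAD5 at 1.21 kb: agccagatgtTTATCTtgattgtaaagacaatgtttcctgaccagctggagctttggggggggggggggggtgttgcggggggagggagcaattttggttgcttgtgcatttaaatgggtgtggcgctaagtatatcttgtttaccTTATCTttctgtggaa
SMAD2 intron 1: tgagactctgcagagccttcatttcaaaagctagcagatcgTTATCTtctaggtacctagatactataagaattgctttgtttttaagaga
SMAD6 upstream: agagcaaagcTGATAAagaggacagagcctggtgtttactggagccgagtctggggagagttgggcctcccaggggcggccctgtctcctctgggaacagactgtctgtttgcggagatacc
SMAD7 intron 1: aagagAGATAGaaacttaTGATAAcagagg
SMAD7 upstream: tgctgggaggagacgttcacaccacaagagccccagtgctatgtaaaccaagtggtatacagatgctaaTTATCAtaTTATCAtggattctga

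The BMP-branch genes came first, since they carry the signal that was given. All 3 had a shared region. SMAD1 (chr4:145481194-145559176, plus strand) had 3 positions in replicate 1, at -52.7, 33.0 and 44.4 kb from its 5′ end, and 1 in replicate 2, at 44.5 kb. The positions at 44.4 and 44.5 kb were 12 bp apart and formed 1 shared region in intron 2. The other positions of replicate 1 had no partner, since the nearest positions of replicate 2 were 97129 and 11483 bp away. The authors named the shared region SMAD1-AS1, an antisense RNA.

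SMAD5 (chr5:136132845-136188747, plus strand) had its shared regions closest to the 5′ end of all 8 genes. Positions lay at 0.540 and 1.22 kb in replicate 1 and at 0.611 and 1.21 kb in replicate 2. The first pair was 71 bp apart and the second 9 bp, and the centres of the regions, 0.576 and 1.21 kb downstream, were 639 bp from each other. In the canonical transcript both lay in intron 1, while the first was in an exon of another annotated transcript of SMAD5 or SMAD5-AS1. Both also lay in the antisense RNA SMAD5-AS1, transcribed from the opposite strand, and the authors' gene names for these positions were of SMAD5-AS1. A ChIP position belongs to neither strand, so the genes cannot be told apart here. The second region also lay in an exon of an annotated transcript of SMAD5 or SMAD5-AS1. The window of the first region had 56.5% GC and 13 CpG, and that of the second 47.5% GC and 2 CpG.

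SMAD9 (chr13:36844831-36920887, minus strand) had 1 position in each replicate, 2 bp apart, at -54.5 kb. This was the closest agreement between replicates among the SMAD regions. The region lay inside ALG5 and 23.4 kb from the 5′ end of EXOSC8, which was nearer than SMAD9, and the authors had named it EXOSC8. No position lay in the SMAD9 gene body.

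The receptor-activated SMADs of the TGF-β and activin branch differed from each other in these counts. SMAD2 (chr18:47808957-47931146, minus strand) had 3 positions in replicate 1, at -30.2, 29.3 and 115 kb, and 3 in replicate 2, at -30.2, 29.4 and 115 kb. Each position had its partner, 45, 70 and 20 bp away, so SMAD2 held 3 shared regions, the highest number among the 8 genes. The first lay upstream, the second in intron 1 and the third in the 3′ untranslated part of exon 11. SMAD2 was the nearest protein-coding 5′ end to all 3. The authors' names for them were SMAD2, RP11-380M21.3 and MTCO2P2, and the last is a pseudogene 37118 bp from the region. The region at 115 kb counted only through the gene body, which stretched the SMAD2 window to 222 kb. Without the gene body SMAD2 had 2 shared regions, as many as SMAD5 and SMAD7. At a sharing distance of 50 bp SMAD2 had 2, as many as SMAD7.

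SMAD3 (chr15:67063763-67195173, plus strand) had 0 positions in either replicate over a window of 231 kb. The nearest shared region was 191 kb from its 5′ end, on the far side of the gene inside AAGAB and 0.370 kb from the 5′ end of IQCH. The nearest position on the other side was 229 kb upstream. The stretch around the SMAD3 5′ end without a position in either list was therefore 419 kb long. A stretch longer than this surrounded the 5′ ends of 28.8% of protein-coding genes, and the median was 262 kb. SMAD3 and SMAD6 are neighbours on chromosome 15, and the 281 kb between the end of SMAD6 and the start of SMAD3 held 1 shared region, 52.4 kb beyond SMAD6. The files do not give read depth, so that a weak peak under the authors' threshold cannot be told apart from no binding.

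SMAD4 (chr18:51028528-51085045, plus strand), the common SMAD, had 2 positions in replicate 1, at -58.1 and 32.9 kb, and 1 in replicate 2, at -58.0 kb. The upstream pair was 35 bp apart and formed the only shared region. It lay inside ELAC1 and inside a protein-coding gene without a symbol, 2.48 and 2.45 kb from their 5′ ends. The authors named it RP11-729L2.2 in both replicates. The position at 32.9 kb, in intron 8, was the one the authors had named SMAD4, and it was found in replicate 1 alone, 90937 bp from any position of replicate 2. No shared region lay in the SMAD4 gene body.

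Both inhibitory SMADs had a shared region upstream, as did SMAD2, SMAD4 and SMAD9. SMAD6 (chr15:66702236-66782849, plus strand) had 1 position in each replicate, 33 bp apart, at -22.3 kb, and the authors named both SMAD6. The region lay in the long noncoding RNA LINC01169. SMAD7 (chr18:48919853-48950965, minus strand) had 6 positions in replicate 1, at -46.3, -32.2, -9.04, 2.49, 10.1 and 18.9 kb, and 2 in replicate 2, at -9.08 and 2.49 kb. Those of replicate 2 matched positions of replicate 1 at 41 and 3 bp, which left shared regions at -9.06 kb and at 2.49 kb in intron 1. The latter was also in an exon of another annotated SMAD7 transcript. The other 4 positions of replicate 1, on either side of these, were between 7590 and 37230 bp from any position of replicate 2. Of all protein-coding genes, 2.55% had at least 6 positions of replicate 1 in the window, while at least 2 shared regions, as at SMAD7, were held by 17.1%.

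**Figure D1:**
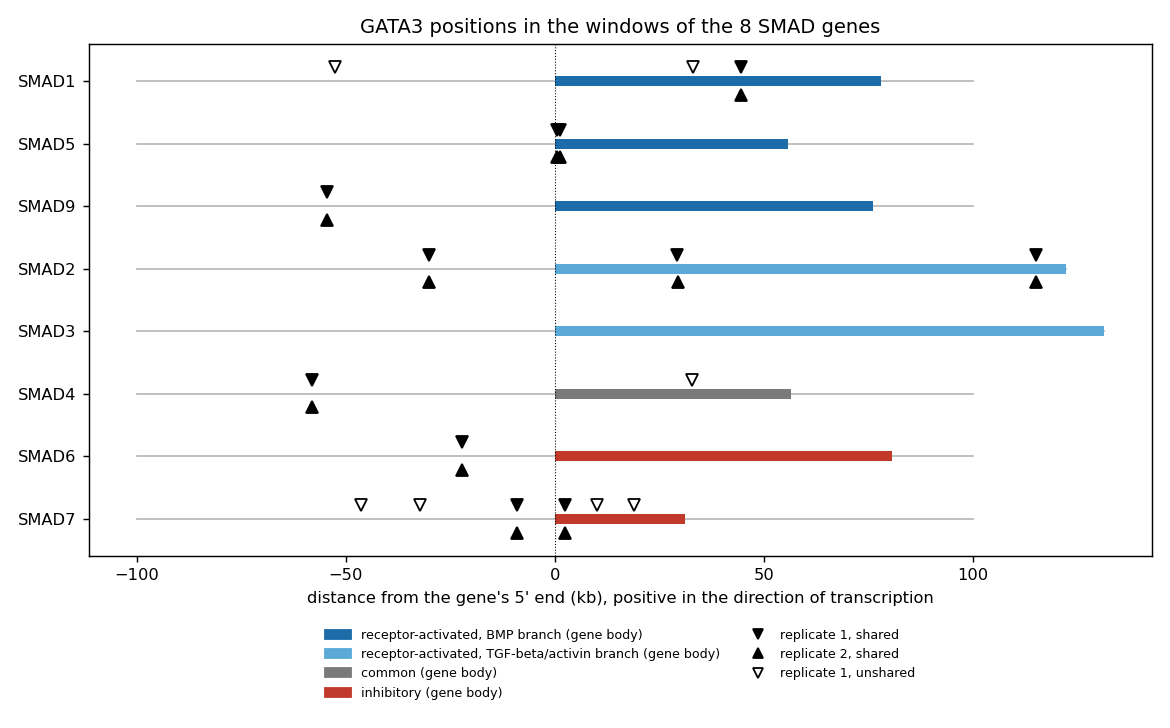
GATA3 positions at each SMAD gene by distance from the gene's 5′ end in kb, positive in the direction of transcription. Thin lines are the windows, thick bars the gene bodies coloured by SMAD class, downward triangles replicate 1 and upward triangles replicate 2, filled where shared. SMAD3 has 0 triangles, SMAD7 has 4 open ones, and all 11 triangles of replicate 2 are filled.

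Across the family, 7 of 8 genes had at least 1 shared region, against 47.5% of all protein-coding genes in windows built the same way. Among genes whose window was the minimum of 200 kb, which were 81.6% of all genes, the share was 44.2%, and all 6 SMAD genes of that length had one. At least 2 shared regions were found at SMAD2, SMAD5 and SMAD7, 3 of 8 genes, against 17.1% of all genes. At least 3 were found at SMAD2, against 5.8% of all genes. The region of SMAD2 in exon 11 lay in its window of 222 kb through the gene body alone. By single lists, 7 of 8 genes had a position of replicate 1, against 68.5% of genes, and 7 of 8 a position of replicate 2, against 57.2%. SMAD3 was the 1 gene with no position in either list, as were 27.6% of all genes. The mean over all genes was 0.741 shared regions per window and the median was 0. In 8 genes of 1 family a count of this kind gives no error, and no test was made.

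By class, the 3 BMP-branch genes held 4 shared regions, or 0.667 per 100 kb of window. The 2 genes of the TGF-β and activin branch held 3, all at SMAD2, or 0.661 per 100 kb. The common SMAD4 held 1, or 0.5 per 100 kb, and the 2 inhibitory genes held 3, or 0.750 per 100 kb. The mean over all protein-coding genes was 0.323 per 100 kb. The classes therefore lay close to each other in shared regions, and a class of 1 to 3 genes leaves no spread by which to rank them. Positions of replicate 1, as raw counts, were 7 in 400 kb of window at the inhibitory genes, 6 of them at SMAD7. The BMP branch had 6 in 600 kb, the TGF-β and activin branch 3 in 454 kb and SMAD4 2 in 200 kb.

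The distance of the nearest shared region put the genes in an order. SMAD5 was first at 0.576 kb, followed by SMAD7 at 2.49 kb, SMAD6 at 22.3 kb, SMAD2 at 29.4 kb, SMAD1 at 44.5 kb, SMAD9 at 54.5 kb, SMAD4 at 58.1 kb and SMAD3 at 191 kb. Of all protein-coding genes, 1.51% had a shared region nearer than SMAD5 did, 4.03% nearer than SMAD7, 18.2% nearer than SMAD2, 30.5% nearer than SMAD4 and 66.1% nearer than SMAD3. The median was 36.9 kb for the 8 genes and 118 kb for all genes. Within 10 kb of the 5′ end, 2 of 8 had a region, against 8.69% of genes, and within 50 kb 5 of 8, against 27.2%. The nearest regions of SMAD5 and SMAD2 rested on positions 71 and 70 bp apart, and neither is shared at a distance of 50 bp. There the nearest lay at 1.21 kb for SMAD5 and 30.2 kb for SMAD2, and the order of the genes stayed the same. The percentages of all genes hold for a sharing distance of 100 bp alone. By single lists the order changed in part. In replicate 1 the nearest position was 32.9 kb from SMAD4, 33.0 kb from SMAD1 and 54.5 kb from SMAD9. In replicate 2 it was 58.0 kb from SMAD4, 44.5 kb from SMAD1 and 54.5 kb from SMAD9.

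**Figure D2:**
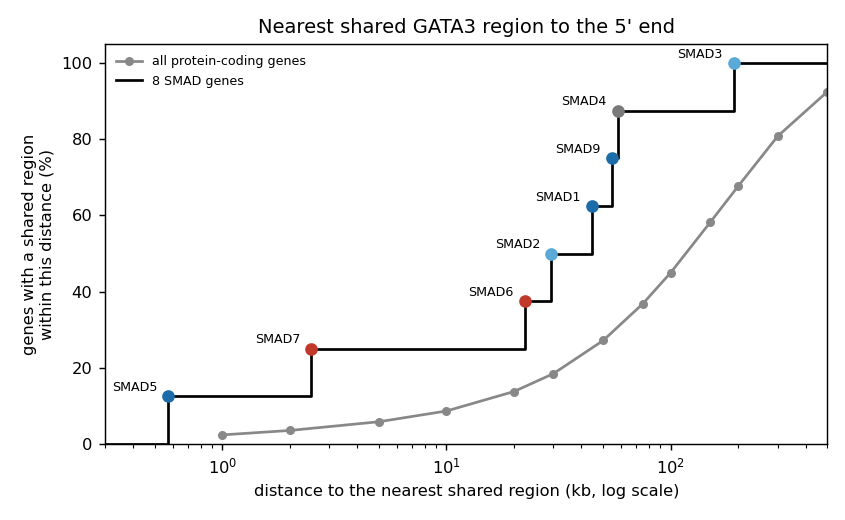
Percentage of genes with a shared GATA3 region within a given distance of the 5′ end (kb, log scale), for the 8 SMAD genes (black steps, points coloured by class as in the map of positions) and all 20033 protein-coding genes (grey). Grey points start at 1 kb, and the black line, from SMAD5 at 0.576 kb to SMAD3 at 191 kb, stays above them.

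The place, gene names and replicate gaps of the SMAD regions are given as a description, since distance, gene body, symbol and gap were used to choose them. Of the 11, 6 lay in the SMAD gene body and 5 upstream, and for 9 the SMAD gene had the nearest protein-coding 5′ end, the exceptions being the regions of SMAD9 and SMAD4. Counting the body of any protein-coding gene, with ALG5 at the SMAD9 region and ELAC1 at the SMAD4 region, 8 of the 11 lay in one, against 46.5% of shared regions over the genome. Only 3 of the 11 regions, at SMAD2, SMAD6 and SMAD7, carried a SMAD symbol as the authors' gene name. The names covered 6 positions of replicate 1 and 3 of replicate 2, all inside the windows. The gap between the replicates ranged from 2 to 71 bp at these regions, with a median of 33 bp, against a median of 23 bp over all shared regions.

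The positions at the SMAD genes were found in both replicates in 11 of 18 cases in replicate 1, or 61.1% (95% Wilson interval 38.6 to 79.7), against 49.6% of all positions of that replicate. All 11 positions of replicate 2 were shared, 100% (95% Wilson interval 74.1 to 100), against 71.5% of all its positions. With a sharing distance of 50 bp, the share at the SMAD genes was 50% in replicate 1 and 81.8% in replicate 2. These intervals treat positions as independent and cover counting error only.

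All 11 shared regions held at least 1 WGATAR within the 200 bp around their centre, which is 100% (95% Wilson interval 74.1 to 100), against 82.0% of all 9145 shared regions, a value inside that interval. The 11 held 18 sites, a mean of 1.64 per region against 1.31 over all shared regions. At least 2 sites were present in 7 of 11, against 34.6%. The 18 positions of replicate 1, with the 7 that had no partner among them, also all had a WGATAR within the same window, against 77.3% of all positions of that replicate. In replicate 2, 10 of 11 had one, against 77.5%. The stricter AGATAA was in 5 of 11 regions, 45.5% (95% Wilson interval 21.3 to 72.0), against 51.6%.

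Close pairs of sites stood at 3 of the 11 regions, of which both SMAD7 regions are seen in the printed sequences. In intron 1 of SMAD7 an AGATAG and a TGATAA started 13 bp apart on the same strand, and upstream of SMAD7 TTATCA occurred at starts 8 bp apart. GATA factors have 2 zinc fingers and are known to bind paired sites. Starts within 15 bp of each other were found in 11.2% of all shared regions. This distance was chosen after the sequences had been seen.

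The sites were not all at the centre. The nearest WGATAR was 1.5 bp from the centre of the SMAD2 region in intron 1 and 3.5 bp at its exon 11 region, but 63.5 bp at the second SMAD5 region and 81.5 bp at SMAD6. The median over the 11 was 33.5 bp, against 17.5 bp over the shared regions that held a site. The 200 bp window at SMAD6 had 60.5% GC and 3 copies of GTCTG or its reverse complement, a short element bound by SMAD proteins. At least 3 copies, a cut equal to the count at SMAD6 itself and the highest of the 11 regions, were present in 1.39% of all shared regions. Over the 11 regions GTCTG was about as frequent as over all shared regions, as given below. The second SMAD5 region had its sites on either side of a long run of G.

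**Figure D3:**
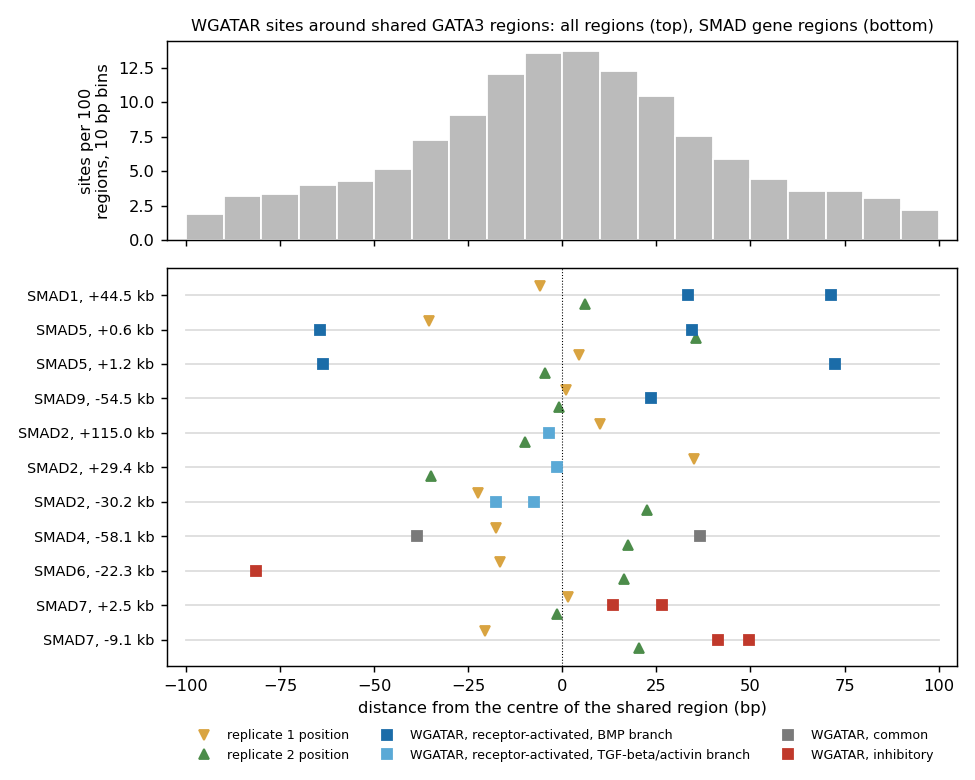
Position of WGATAR sites relative to the centre of shared regions in bp. The top panel gives sites per 100 regions in bins of 10 bp over all 9145 shared regions, and the bottom panel gives each SMAD region with its sites (squares, coloured by class) and its replicate positions (triangles). Sites crowd within 50 bp of the centre in the top panel, while those of SMAD6 and the second SMAD5 region lie beyond it.

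Other short motifs in the 200 bp windows were searched on both strands. GTCTG was in 4 of 11 regions, at SMAD1, SMAD2 upstream, SMAD6 and SMAD7 upstream, which is 36.4% (95% Wilson interval 15.2 to 64.6) against 36.1% of all shared regions. GGCGCC, an element of SMAD1 and SMAD5 proteins, was in 0 of 11, against 1.96%. The octamer ATGCAAAT of POU factors was in 0 of 11, against 5.10%, and the AP-1 element TGANTCA in 0 of 11, against 8.88%. With 11 regions a share of up to 25.9% is within the Wilson interval of 0, so these absences were not distinguishable from the shares of all regions. The TEAD element GGAATG was in 2 of 11, 18.2%, against 18.9%.

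The partners and regulators of SMAD proteins were taken as a list of 25 genes. Of these 13, or 52.0%, had a shared region in their window, against 47.5% of all genes, so this list lay near the background. BAMBI, a pseudoreceptor that inhibits TGF-β and BMP signals, had the most, with 3 shared regions among 6 positions in replicate 1 and 4 in replicate 2, the nearest 7.82 kb from its 5′ end. WWP1, a ubiquitin ligase, had its region at 1.80 kb and SKIL, a corepressor that binds SMADs, at 2.61 kb. Of the other ubiquitin ligases known to work with SMAD7, NEDD4L had 2 shared regions in a window of 457 kb, the nearest at 108 kb. RNF111 had 2 positions in each replicate but 0 shared regions in its window, the nearest being 643 kb away. SMURF2 had 1 shared region, at 44.9 kb, and SMURF1 had 0 positions in either replicate. SKI, STUB1, FOXH1 and PMEPA1 likewise had 0. Within 50 kb 7 of the 25 had a region, against 27.2% of all genes.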

How the data were processed

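GATA3 ChIP-seq positions of 2 replicates were analysed, and the inputs entered through the authors' peak calling. Per the study's methods and the submitters' processing notes, reads were trimmed with cutadapt, aligned to hg38 with bowtie, stripped of duplicates with Picard, of multiply mapped reads and of blacklisted regions, and peaks were called with MACS2 (q 0.05) in each replicate against its input. In the deposited files a peak was a single base position, written as start and end, with a gene name, with no width, score or depth, so a strong and a weak peak counted alike. How positions were derived, and whether bases were counted from 0, is not given in the sources used here, so offsets carry 1 bp or more of doubt. The lists held 18545 lines in replicate 1 and 12870 in replicate 2, which are not the peak counts that the paper gives. Repeated positions were counted once, and those on unplaced contigs were left out.

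Positions were compared with GENCODE release 44 and hg38 sequence in Python 3.11.15 with numpy 2.4.6 and scipy 1.17.1. The 5′ end was that of the GENCODE gene. The 7 motifs were searched on both strands. The sequences of some regions are not reported here. The linking, counting and motif steps were checked on simulated data. Named genes were all 8 members, a list of 25 partners and regulators, and genes needed to place a region. The members and lists were chosen with earlier results of these data known. The members were compared with all protein-coding genes by counts, with no test. Other distances, windows, 5′ ends, motifs, single lists and the authors' names were tried.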

Additional observations from a re-analysis of the deposited data

How the results depend on the processing

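No paired analysis was possible because no test compares groups and the inputs have no file that was analysed here. The 7 genes with a shared region became 4 with a window of 10 kb or the gene body, and the 11 regions became 7, since the upstream regions of SMAD9, SMAD4, SMAD6 and SMAD2 lay outside it. With the authors' symbol alone there were 3 genes and 3 regions. No share of all protein-coding genes is given here under these settings, so the 4 and the 3 genes cannot be set against a background. The 47.5% given above holds for the window of 100 kb or gene body alone. Using 1 replicate at a time, the number of genes was 7 with either list, the number of positions ran from 11 to 18, and the share with WGATAR from 90.9% to 100%. AGATAA in place of WGATAR gave 45.5%. The sharing distances of 50, 250 and 500 bp, the window of 50 kb, the window without the gene body and the canonical 5′ end left the counts over the family within 1.5 times and the shares inside their intervals. Among the counts of single genes 15 moved by more than 1.5 times, among them SMAD5, which had 1 shared region at 50 bp and 0 by the authors' symbol. SMAD3 had 0 under every alternative run. The files hold no depth, so an absent position sets no upper limit on binding.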
